A study of Drosophila melanogaster with 2 samples.

Results

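The genes described here encode the receptor tyrosine kinases of Drosophila melanogaster, their ligands, and the chain of proteins that carries their signal through Ras and MAP kinase to transcription factors in the nucleus. The list held 44 genes, given by name, out of 13968 protein-coding genes on 7 chromosomes, and all 44 were matched by symbol. The data were peak lists from chromatin immunoprecipitation and sequencing (ChIP-seq) of whole embryos, collected 0 to 24 h after egg laying and carrying a transgene that fuses danr to eGFP. The fusion was recovered with an antibody against GFP, so the lists give the sites at which the tagged protein was recovered. danr, distal antenna-related, encodes a nuclear DNA-binding protein of the pipsqueak class. The series has 1 group of 2 biological replicates and no second genotype, stage or treatment. What drives the transgene is not given in the labels, the named control libraries were not analysed here, and whole embryos mix all cell types.

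In this pathway a secreted ligand binds a receptor kinase at the cell surface, and adaptor proteins then bring an exchange factor to Ras. Ras sets off the kinases Raf, MEK and ERK, which in flies are the products of Raf, Dsor1 and rl, and ERK changes the activity of nuclear factors such as Pointed, Yan and Capicua. Several target genes encode inhibitors of the pathway itself. In the embryo the EGF, FGF, Torso, Alk and PVR receptors pattern the ectoderm, the mesoderm and trachea, the embryo's ends, the gut muscle and the blood cells.

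Overlapping peaks of the authors' thresholded list of both replicates were merged to 2653 regions, of which 2632 lay on these chromosomes. Each region has a summit, its point of highest signal, and a signal, the authors' enrichment value, with a median of 82.8 over all regions. The depth of sequencing is unknown from these lists. No value below is a test, because the design has no groups to compare.

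Regions were found at about as many of these genes as not. A summit lay between 5 kb upstream and the gene end for 23 of the 44 genes (52.3%), against 24.2% of all protein-coding genes. Near the start sites the count was lower, and 10 of the 44 genes (22.7%) had a summit no more than 1000 bp from an annotated start, against 13.4% of all protein-coding genes. The other 13 genes with a region had it farther inside the gene or upstream, and 21 had none. The count near start sites depended on the distance allowed. With 500 bp it was 4 genes (9.09%), against 11.2% of all genes, and these 4 were spi, Krn, Shc and stumps. With 2000 bp it was 16 genes (36.4%), against 17.1%. The summits just inside 1000 bp were those of pnt at 896 bp and sty at 935 bp, and those just outside were those of cnk at 1101 bp and Pvf3 at 1188 bp.

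The 48 regions at these genes were 1.82% of the regions on the 7 chromosomes. Their signals ran from 43.0 to 589 with a median of 97.6, and 3 were among the 100 strongest regions of the series. In each replicate's ranked list, which holds peaks of any strength, the overlapping peaks had a median signal of 48.7 in replicate 1 (19.9 to 192, 48 regions) and 46.3 in replicate 2 (18.4 to 396, 45 regions). For the other 3 regions replicate 2 had no overlapping peak.

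**Figure D1:**
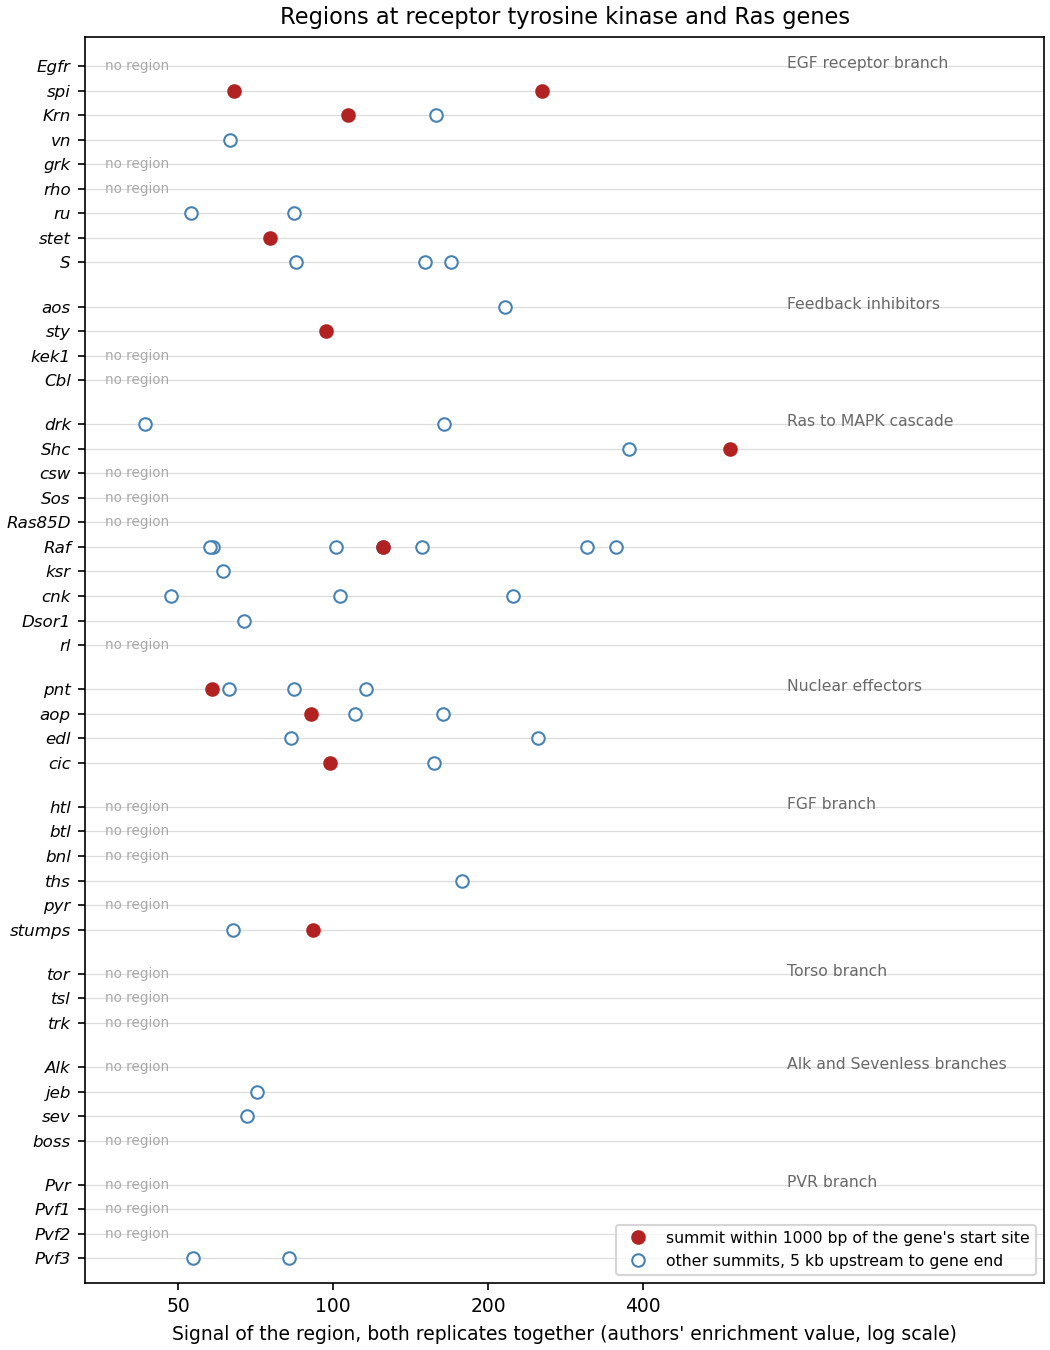
Signal of every region at the 44 genes, by gene and role, on a log scale, with summits within 1000 bp of a start site filled and the others open. Shc and Raf carry the strongest regions, between 311 and 589, the 3 Torso branch genes carry none, and 2 regions of Raf have about the same signal, 125, and overlap as points.

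The bases under the strongest of these summits are shown because the rest of the account refers to them. Each line gives 50 bp on either side of the summit, 101 bases on the plus strand of dm6, and the capitals mark TATAAA, the core of the TATA box, or its reverse complement TTTATA. These are the 6 strongest regions at the listed genes of chromosomes 2L, 3L, 3R and X, and none of the windows overlaps an annotated exon. The strongest regions at edl, with 250, and cnk, with 223, exceed that of aos and are not printed here. Each label names the listed gene. The summit of the first Shc window is equally near the start of Atat, and that of the second lies within Atat and nearest the start of aay.
Shc promoter, chr3L:9426834-9426934: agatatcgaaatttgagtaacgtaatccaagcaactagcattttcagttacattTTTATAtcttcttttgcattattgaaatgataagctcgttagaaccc
Shc upstream, chr3L:9423001-9423101: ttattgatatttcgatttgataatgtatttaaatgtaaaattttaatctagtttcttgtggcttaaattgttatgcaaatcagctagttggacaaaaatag
Raf intron, chrX:2297668-2297768: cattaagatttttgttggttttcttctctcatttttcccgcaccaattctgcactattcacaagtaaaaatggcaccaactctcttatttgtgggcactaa
Raf intron, chrX:2300642-2300742: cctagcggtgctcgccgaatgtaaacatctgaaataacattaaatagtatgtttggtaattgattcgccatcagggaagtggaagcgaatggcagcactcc
spi internal promoter, chr2L:19575763-19575863: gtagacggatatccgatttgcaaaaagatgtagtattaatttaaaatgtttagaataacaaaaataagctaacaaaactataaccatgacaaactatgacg
aos intron, chr3L:16480517-16480617: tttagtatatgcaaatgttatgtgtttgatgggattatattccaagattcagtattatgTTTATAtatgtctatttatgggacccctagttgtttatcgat

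Among the EGF receptor genes, regions lay at ligands and at the proteins that release them, and the receptor had none. Of 9 genes, 6 had a region, against 24.2% of all protein-coding genes and 38.8% of the longest quartile of genes, over 5 kb. The gene spi (FBgn0005672) encodes Spitz, the main ligand of the embryo, and its stronger region ran from 19575641 to 19575984 on 2L. The signal there was 254, with 119 in replicate 1 and 133 in replicate 2, and the summit lay inside the gene, 226 bp upstream of an internal start site. A second region at the outermost start of spi, 46 bp upstream, had a signal of 64.1. Neither replicate alone passed the threshold there, with 20.0 in replicate 1 and 37.8 in replicate 2.

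Krn (FBgn0052179), which encodes the ligand Keren, had a region 75 bp upstream of its start with a signal of 107, with 54.0 in replicate 1 and 52.4 in replicate 2. The start of Ndfip is equally close to that summit. A stronger one, 158, lay 4313 bp upstream of Krn, where the start of CG7484 is nearer. The gene for the third ligand, vn, had 1 weak region deep in an intron, 21392 bp from its start, with 63.0. There the replicates differed more than 2-fold, with 40.7 in replicate 1 and 18.4 in replicate 2. The start of mad2, 11179 bp away, was nearer to that summit. The gene grk, for the ligand Gurken of the oocyte, had none.

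S (FBgn0003310) encodes Star, which carries Spitz through the secretory pathway, and its 3 regions all lay in introns, 1838, 3073 and 5395 bp from the start. Their signals were 169, 84.5 and 151. The region at 1838 bp had 79.4 in replicate 1 and 91.6 in replicate 2, and that at 5395 bp had 104 in replicate 1 and 42.1 in replicate 2. So the replicates order the 2 stronger regions of Star in opposite ways. Of the genes for rhomboid proteases, which cut the ligands free, stet had a region of 75.3 at 632 bp from a start site. That region had 35.5 in replicate 1 and 37.7 in replicate 2, and neither replicate alone passed the threshold. The protease gene ru had 83.8 at 2281 bp upstream and 52.8 in an intron, both within the span of Ptp61F as well, and rho had none. The start nearest to the ru region of 52.8 was that of tRNA:Glu-CTC-3-1, 904 bp away. Egfr itself had no region within its 37.6 kb or 5 kb upstream. Its strongest ranked peak near a start site reached 27.0 in replicate 1 and 24.5 in replicate 2. In that whole window, its strongest ranked peak of both replicates together had 47.3. The score of that peak was 712, and the lowest in the thresholded list was 830.

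Feedback inhibitors were split, with a region at 2 of 4 genes, against 24.2% of all protein-coding genes and 38.8% of the longest quartile. aos (FBgn0004569) encodes Argos, a secreted protein that binds Spitz and keeps it from the receptor, and a region of 216 lay in an intron from 16480395 to 16480738 on 3L. It was 3083 bp from the start, with 121 in replicate 1 and 89.7 in replicate 2, and the summit also lay within CG33158. The gene sty, for the intracellular inhibitor Sprouty, had 96.6 at 935 bp from an internal start, with 39.2 in replicate 1 and 58.8 in replicate 2. The receptor-binding inhibitor gene kek1 and the ubiquitin ligase gene Cbl had none.

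The Ras to MAP kinase cascade held the strongest regions of the list. Of its 10 genes, 6 had a region, with 17 regions in all. The share was 24.2% for all protein-coding genes and 38.8% for the longest quartile. Shc (FBgn0015296), which encodes an adaptor that binds activated receptors, is a short gene of 1.66 kb. A region from 9426735 to 9427013 on 3L had its summit 126 bp upstream of the start, and its signal of 589 was rank 22 of 2653. The replicates differed more than 2-fold there, with 192 in replicate 1 and 396 in replicate 2, and both had the top score of 1000. The start of Atat, in the other direction, is also 126 bp away, so position does not tell which gene the region belongs to. The region of 376 upstream of Shc lay 3959 bp away, within Atat and 202 bp from the start of aay. It had 192 in replicate 1 and 179 in replicate 2.

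Raf (FBgn0003079), the kinase that Ras activates, had 8 regions, more than any other gene of the list. Over all protein-coding genes, 5 had a larger number and 1 the same number, and the highest was 11. Raf is 48.4 kb long, but its regions all lay at the 5′ end, within 12784 bp from the first summit to the last, with neighbours 1393 to 2552 bp apart. The strongest, 354, lay in an intron 2252 bp from the start, on X from 2297622 to 2297836, with 173 in replicate 1 and 178 in replicate 2. The next, 311, lay at 5226 bp, with 153 in replicate 1 and 161 in replicate 2. A region of 149 at 6855 bp had 87.0 in replicate 1 and 58.6 in replicate 2. A region of 125 at 859 bp, in the 5′ UTR, was the only one no more than 1000 bp from a start of Raf, with 61.1 in replicate 1 and 65.3 in replicate 2. Another of 125 lay upstream, 1693 bp away and 362 bp from the start of CG2865. The remaining 3 ran from 57.6 to 101. Of the 8, 6 were in both replicates' thresholded lists, and the pair that was in neither had the lowest signals, 58.4 and 57.6. All 8 were in the conservative list.

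**Figure D2:**
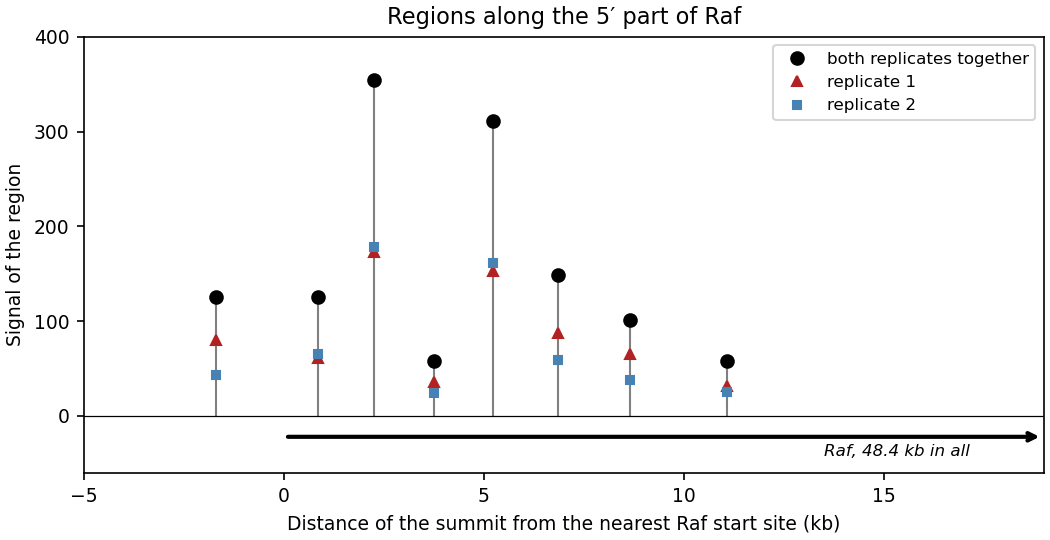
Signal of the 8 regions at Raf against the distance of their summit from the nearest Raf start site in kb, for both replicates together and for each replicate. The regions at 2252 and 5226 bp stand above the rest in each replicate, and none lies beyond 11091 bp.

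Elsewhere in the cascade the regions were fewer and often nearer to another gene. drk encodes the adaptor that links receptors to Sos, and its region of 164 lay in an intron with 91.2 in replicate 1 and 69.5 in replicate 2. The start of mars, 874 bp away, was nearer to that summit than the start of drk, 2546 bp away. A second one upstream of drk, 43.0, lay 106 bp from the start of mEFTu1. cnk encodes a scaffold for Raf, and its 3 regions, at 223, 48.3 and 103, all lay upstream within l(2)k01209. The region of 223 had 105 in replicate 1 and 115 in replicate 2. The scaffold gene ksr had 61.1 at 1524 bp upstream, 113 bp from the start of CG31550. Dsor1, the MEK gene, had 67.2 at 3685 bp upstream, 160 bp from the start of Larp7, with 22.0 in replicate 1 and 48.2 in replicate 2. The genes csw, Sos, Ras85D and rl, for a phosphatase, the Ras exchange factor, Ras and ERK, had none.

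The nuclear effectors were the only role group in which every gene had a region. Their 4 genes carried 11 regions, with signals from 58.0 to 250, and 3 of the 4 had a summit no more than 1000 bp from a start. All 4 are over 5 kb long. Of all genes in that quartile of length, 38.8% had a region in the wider window and 20.4% a summit near a start. Among these effectors, the near-start region of cic was in both replicates' thresholded lists. Those of aop and pnt were in the list of replicate 2 and not of replicate 1. edl (FBgn0023214) encodes a small protein that binds Yan and Pointed. Its stronger region lay in an intron on 2R from 18671656 to 18671804, 1816 bp from the start, with a signal of 250 and with 124 in replicate 1 and 126 in replicate 2. The weaker region of edl, 82.6, lay 4801 bp from the start of edl and 2943 bp from that of CG33136. aop (FBgn0000097) encodes Yan, the ETS-type repressor that MAP kinase inactivates. It had 163 in an intron, with 87.7 in replicate 1 and 71.6 in replicate 2, and 90.7 and 110 at 840 and 1489 bp upstream of its outer start.

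pnt (FBgn0003118), for the ETS-type activator Pointed, had 4 regions along its 55.9 kb. The strongest was 116 in an intron, with 73.0 in replicate 1 and 41.9 in replicate 2, and the region 896 bp upstream of a start was the weakest at 58.0. For the region of 62.8 the start of lncRNA:CR46090 was 40 bp away, and that of pnt 12324 bp. The same lncRNA start was also nearer than that of pnt for the regions of 116 and 83.7. None of the 4 was in both replicates' thresholded lists. Replicate 1 alone also had a region at pnt, 208 bp from a start site, with 43.8, that the list of both replicates lacks, and replicate 2 alone had another, 1548 bp from a start site, with 32.5. cic (FBgn0262582) encodes Capicua, the HMG-box repressor that receptor signalling removes. It had 157 in an intron, 8863 bp from the start, with 99.8 in replicate 1 and 54.4 in replicate 2. At 557 bp, in the 5′ UTR, cic had 98.6, with 41.6 in replicate 1 and 64.9 in replicate 2.

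In the FGF branch, 2 of 6 genes had a region, against 24.2% of all protein-coding genes and 38.8% of the longest quartile. ths, for the FGF ligand Thisbe, had 178 in an intron 1478 bp from a start site, with 97.2 in replicate 1 and 74.2 in replicate 2. stumps, for the adaptor of both FGF receptors, had 91.2 at 411 bp upstream of an internal start, with 42.3 in replicate 1 and 46.5 in replicate 2, and 63.9 upstream within CG7987. The receptor genes htl and btl and the ligand genes bnl and pyr had none.

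Of the other branches, 0 of 3 Torso genes, 2 of 4 Alk and Sevenless genes and 1 of 4 PVR genes had a region. The share of all protein-coding genes was 24.2%. The Torso receptor gene tor, its ligand gene trk and the activator gene tsl, which pattern the ends of the embryo, had no region. jeb, for the Alk ligand, had 71.2 deep in an intron, and sev, for the receptor of the R7 photoreceptor, had 68.0 in an intron. Both were in the thresholded list of replicate 1 and not of replicate 2. The summit at sev lay 4919 bp from the start of sev and 2089 bp from that of asRNA:CR44358. The Alk receptor gene and boss, the Sevenless ligand gene, had none. Of the PVR genes, Pvf3 had 82.2 and 53.5, both in introns and both without an overlapping ranked peak in replicate 2, and Pvr, Pvf1 and Pvf2 had none.

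Most of the 21 genes without a region had a ranked peak near a start, as did most protein-coding genes. Of the 21, 17 had a ranked peak of any score no more than 1000 bp from a start in replicate 1, and 15 in replicate 2. Over the 44 genes this was 40 in replicate 1 and 35 in replicate 2, and over all protein-coding genes 79.7% in replicate 1 and 77.5% in replicate 2. The highest of the 21 in replicate 2 was at Ras85D, with a signal of 48.4 and the top score of 1000, 185 bp from the start. The overlapping peak of highest signal in replicate 1 had 15.5 and a score of 15, and the peak of both replicates together had 57.4 and a score of 38. The score of both replicates together is below 830, the lowest in the thresholded lists. The peak is also missing from replicate 2's own thresholded list although its score there is above 830, and the cause was not tested. Next were tsl with 28.9 in replicate 2 and Egfr with 27.0 in replicate 1. In the wider window, the strongest ranked peak of both replicates together was 61.9 at Pvf1, with a score of 800. It was 45.4 at kek1 with a score of 741 and 47.3 at Egfr with 712. At rl it was 18.1 with a score of 49, and trk had none.

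The replicates shared a part of these regions. Of the 48, 23 (47.9%) overlapped a thresholded region of each replicate, against 39.9% of all regions. In replicate 1's list only there were 8, in replicate 2's only 6, and 11 (22.9%, against 25.0% of all) were in neither. Those 11 include the 3 regions, 1 at cnk and 2 at Pvf3, for which replicate 2 had no overlapping ranked peak. The conservative list held 39 of them (81.2%, against 74.4%), and 1 more region upstream of drk, with a signal of 49.2. Where both replicates had a ranked peak, 41 of 45 signals were within 2-fold (91.1%, against 85.3%), and replicate 1 was higher in 25 and replicate 2 in 20. The 4 outside 2-fold were at vn, S, Dsor1 and Shc. With replicate 1 alone, 6 of the 44 genes (13.6%) had a summit no more than 1000 bp from a start, against 8.81% of all genes. With replicate 2 alone it was 9 genes (20.5%), against 9.09%. In the wider window it was 17 of 44 (38.6%) with each replicate alone, against 16.7% with replicate 1 and 16.4% with replicate 2. In the conservative list it was 9 genes (20.5%, against 11.0%) near a start and 19 (43.2%, against 20.1%) in the wider window.

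**Figure D3:**
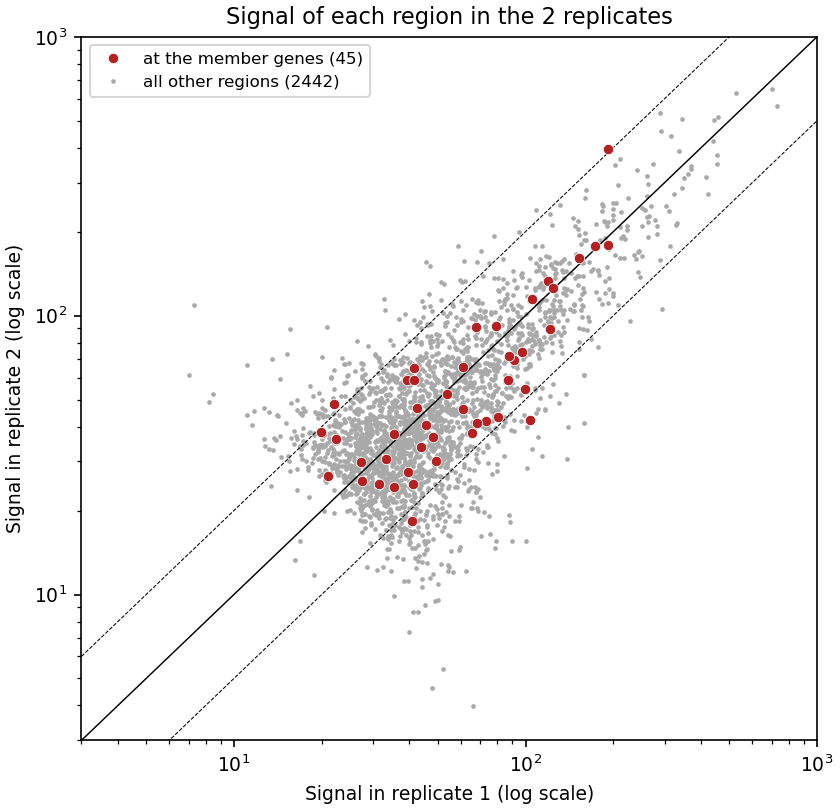
Signal in replicate 1 (horizontal axis) and replicate 2 (vertical axis), both on log scales, for the 45 regions at these genes with a ranked peak in both (red) and for the other regions (grey), with the line of equality solid and 2-fold dashed. Of the 45, 41 lie between the dashed lines, and the region equally near the starts of Shc and Atat lies above the upper line.

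These genes are long, and longer genes held regions more often throughout the series. The median length of the 44 genes was 13.7 kb, against 2.16 kb for all protein-coding genes, and 35 of them (79.5%) were in the longest quartile of genes, over 5 kb. Among those 35, 20 (57.1%) had a region in the wider window, against 38.8% of all genes of that quartile, and 8 (22.9%) had a summit no more than 1000 bp from a start, against 20.4%. Of the 9 shorter genes, 3 had a region in the wider window and 2 near a start. Per length of window, there were 4.55 regions per 100 kb at the 44 genes, against 2.26 per 100 kb at all protein-coding genes. A gene's number of start sites also adds to its reach, and the part of length and start sites in these counts was not tested. Genes with 2 or more regions made up 31.8% of the 44 (14 genes), against 5.55% of all genes.

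**Figure D4:**
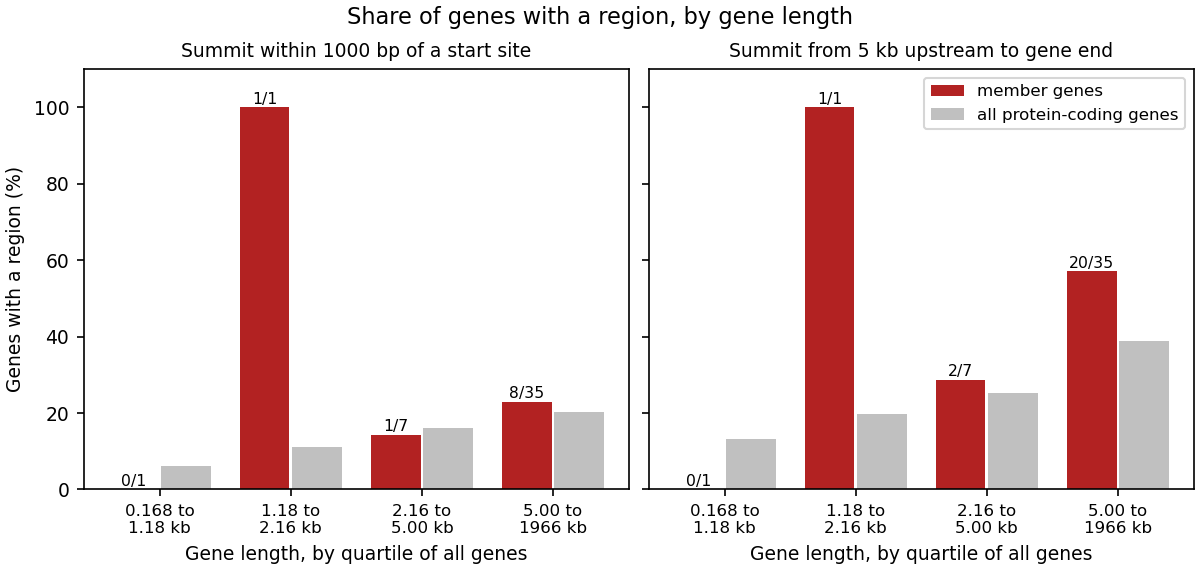
Percent of genes with a region, by quartile of gene length, for the 44 genes (red, with counts) and all protein-coding genes (grey), near start sites and in the wider window. In the longest quartile the shares are 22.9% against 20.4% near start sites and 57.1% against 38.8% in the wider window, and the first 3 quartiles hold only 9 of the 44 genes.

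Most of the 48 summits lay in introns rather than at promoters. Introns held 30 (62.5%), against 37.3% of all regions, and 12 (25.0%, against 46.5%) lay within 500 bp of the start site of any gene. A further 4 were intergenic, 2 were in a 5′ UTR, and none was in coding sequence or a 3′ UTR. The 48 were picked by position, from 5 kb upstream to the end of mostly long genes, and the regions of the whole series were not. The part of that choice in these shares was not tested. The nearest start site belonged to the listed gene, alone or tied, for 30 regions and to another gene for 18, 10 of them upstream and 8 inside the gene. The signals near and far overlapped. The 11 regions no more than 1000 bp from the gene's own start had a median of 96.6 (58.0 to 589), and the 37 others had 101 (43.0 to 376).

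Base composition under the summits was close to that of the whole series. The median A+T content of the 101 bases was 67.8% (50.5 to 88.1), against 68.3% for all regions, and in windows 1000 bp to either side it was 59.4%, against 57.4%. The 6 windows printed above ran from 76.2% upstream of Shc to 55.4% in the second Raf window, and the strongest region at cnk had 79.2%. TATAAA on either strand was in 12 of 48 windows (25.0%), against 23.2% of all regions, and in 4 of the 96 flanking windows, against 11.9% of all flanks. It was in the Shc promoter and aos windows, where the capitals stand, and in none of the 8 Raf windows. GAGAG was in 6 (12.5%, against 9.08%), TAATTA in 5 (10.4%, against 9.50%), ACAAT in 13 (27.1%, against 30.9%) and CATATG in 4 (8.33%, against 4.41%). CCGGAA, an ETS core of the kind Pointed and Yan recognise, was in none of the 48, against 2.09% of all regions. TGAATGAA, the Capicua site, was in 1, at stet (2.08%, against 0.912%), and TATCGATA was in none, against 0.988%. Both strands were searched, and a base could count in more than 1 motif.

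**Figure D5:**
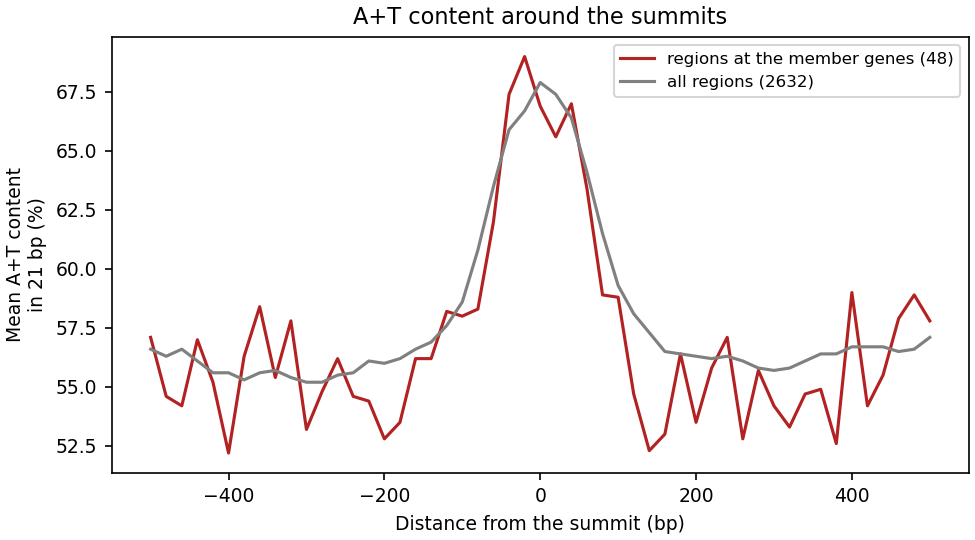
Mean A+T content in steps along the distance from the summit, for the 48 regions at these genes (red) and all regions (grey), in windows of 21 bp. Both are highest close to the summit, with 66.9% at these genes and 67.9% in all regions at the summit itself.

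A further list of 68 genes with roles in or around the pathway was counted the same way. It too was chosen with earlier results of these data known. Of these, 20 (29.4%) had a summit no more than 1000 bp from a start, against the 13.4% of all genes, and 35 (51.5%) had one in the wider window, against 24.2%. When each region went only to the gene with the nearest start, the near-start count was 16 (23.5%, against 9.39%). The length and number of start sites of the 68 genes were not taken into account. Of all genes in the longest quartile, 20.4% had a near-start summit. Of 13 other receptor tyrosine kinases, 2 had a near-start summit and 8 had a region in the wider window. Of 8 feedback or modifier genes, 2 had a near-start summit and 6 had a region in the wider window. Of 14 nuclear partners and targets it was 3 near a start and 6 in the wider window, and of 10 adaptors and scaffolds 5 near a start and 6 in the wider window. The counts were the same by both measures, 4 genes, for the 8 Ras-family genes and regulators and for the 9 kinase regulators and phosphatases. Of 6 genes of ligand processing and Torso activation, 0 had a near-start summit and 1 had a region in the wider window. The strongest was Btk, a cytoplasmic tyrosine kinase, with a signal of 392 at 127 bp, with 244 in replicate 1 and 143 in replicate 2. RapGAP1, which switches off the Ras relative Rap1, followed with 305, with 192 in replicate 1 and 111 in replicate 2. RasGAP1, which switches off Ras, had 256, with 147 in replicate 1 and 110 in replicate 2. The corepressor gene gro had 222, with 91.1 in replicate 1 and 134 in replicate 2, and InR, the insulin receptor gene, had 196, with 111 in replicate 1 and 81.6 in replicate 2. All 5 were in both replicates' thresholded lists.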

How the data were processed

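Whole embryos of 1 group were profiled by ChIP-seq in 2 biological replicates. The deposited files are 8 peak lists on dm6, per the labels. For the aligner and peak caller, the sources used here give no name. The authors deposited a signal for each peak, their enrichment value on a scale that is not stated, used here within a list or side by side between replicates. The deposited score is a transform of the irreproducible discovery rate (IDR), capped at 1000, and every deposited thresholded row had at least 830, an IDR of 0.010. The −log10 of the IDR in the deposited ranked lists was used only to check the score.

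Within a list, peaks sharing at least 1 bp were merged, and the strongest gave summit and signal. Start sites and features came from Ensembl release 115, whose chromosomes are those of dm6, and sequence from the RefSeq assembly of the same release, and every peak ended within its chromosome. Transposable elements were left out. The signal per replicate is that of the strongest overlapping ranked peak. Python 3.11.15 was used, and the counting was checked on simulated data. Genes were named if they were listed members with a region or with 1 of the 3 strongest ranked peaks among the rest, or among the 5 strongest near-start genes of the further list, or had the start nearest to, or a span over, a member's summit. For 2 of the 68 further genes a synonym gave the symbol. Members and lists were chosen with earlier results of these data known. No test was run: there is 1 group, and depth is unknown, so no intervals from counts are given. Alternatives covered the list, the replicates, the distance, the window, merging and the assignment to genes.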

Additional observations from a re-analysis of the deposited data

How the results depend on the processing

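Control libraries were not analysed here and depth is unknown, so each count gives only how many summits fell near these genes. The number of the 44 genes with a near-start summit was 10. It was 4 with 500 bp and 16 with 2000 bp, and between 6 and 9 with 1 replicate left out. The number of genes with a region in the wider window was 23. It stayed within 1.5 times under every alternative run, from 16 with regions above the median signal to 25 with 10 kb upstream. The share of all protein-coding genes moved more. With regions above the median signal it was 36.4% of the 44 genes against 14.4% of all, and with 10 kb upstream 56.8% against 32.6%. In the gene body only it was 40.9% against 8.38%, and with the nearest start only 38.6% against 13.2%. The 48 regions became 30 with regions above the median signal, 31 in the gene body only, 31 when each region went only to the gene with the nearest start, and 30 to 32 with 1 replicate left out. Without Raf, an alternative chosen after seeing the data, there were 40, their median signal was 91.0, and 17 of them were in both replicates. The median signal of 97.6 became 108 in the conservative list and 150 with regions above the median signal, and 61.9 to 76.2 with 1 replicate left out, where signals are on the scale of that replicate. The median A+T content of 67.8% was 63.2% with 100 bp either side and 64.4% to 67.3% with 1 replicate left out. The count of 12 summits with TATAAA was 7 to 9 with 1 replicate left out. Of the 68 further genes, 20 had a near-start summit. That became 13 (19.1%, against 7.85% of all genes) with regions above the median signal and 11 (16.2%, against 11.2%) with 500 bp. It was 16 (23.5%, against 8.81%) with replicate 1 alone and 11 (16.2%, against 9.09%) with replicate 2 alone. Of the 23 genes with a region, 17 had at least 1 with replicate 1 alone (stet, sty, ksr, Dsor1, stumps and Pvf3 did not) and 17 with replicate 2 alone (vn, ru, stet, jeb, sev and Pvf3 did not). In the conservative list 19 had one, without vn, ksr, Dsor1 and Pvf3. No paired analysis was possible because the design has 1 group.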
